A study of Mus musculus with 8 samples.

Results

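The genes described here encode 9 proteins that set how long messenger RNAs (mRNAs) last, above all those of cytokines, and they were picked by symbol from a table of read counts for 54532 mouse genes. They are the tristetraprolin family (Zfp36, Zfp36l1 and Zfp36l2), the RNA-binding proteins Zc3h12a and Rc3h1, the deadenylase scaffold Cnot1, and the AU-rich element binding proteins Elavl1, Khsrp and Hnrnpd. Each of the 9 symbols was held by 1 gene, and all 9 passed the filter on low counts, which left 12911 genes. The choice was made with the contrast between the genotypes already known, so the values of these 9 genes are a description, and how many of them passed a threshold is given only beside the share of all genes.

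The libraries were made from bone marrow-derived macrophages (BMDMs), that is, from bone marrow cells turned into macrophages in a dish with macrophage colony-stimulating factor. The marrow is described as that of female C57BL/6J mice aged 6 to 8 weeks. WT mice were purchased, and Gsdmd-/- mice came from a donated knockout line kept in a university facility, so the deletion and the origin of the mice cannot be told apart. Gsdmd encodes gasdermin D, the protein that forms pores in the membrane of a cell undergoing pyroptosis. All cells were untreated and were cultured for 6 days, and each genotype had 4 libraries. No source used here states that the libraries came from separate mice, so p-values measure the spread between these libraries, which may be technical. The same holds for every standard deviation (SD).

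Many short-lived mRNAs carry AU-rich elements (AREs) in the 3' untranslated region (UTR). Proteins of the tristetraprolin family bind these elements through zinc fingers and bring in the CCR4-NOT complex, which shortens the poly(A) tail and exposes the mRNA to decay. In macrophages tristetraprolin is best known for limiting tumour necrosis factor, and its own mRNA is an immediate-early transcript that carries an ARE and is bound by its own product. HuR, the product of Elavl1, binds similar elements and as a rule stabilises the mRNA.

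The letters that the zinc fingers bind best are the nonamer TTATTTATT, written here as DNA, and 5 of the 9 genes hold it in their longest annotated 3' UTR. The sites of the 3 tristetraprolin family genes and of the called target mRNAs Dusp1, Fos and Pim1 are shown because the results below turn on these genes, and that of Tnf because it is the classic target. They were read on the RNA strand from GENCODE M21 transcripts (GRCm38, mm10), 5' to 3', with the nonamer in capitals.
Zfp36, chr7:28376951-28376979, minus strand: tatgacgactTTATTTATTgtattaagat
Zfp36l1, chr12:80108167-80108195, minus strand: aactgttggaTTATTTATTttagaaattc
Zfp36l2, chr17:84184914-84184942, minus strand: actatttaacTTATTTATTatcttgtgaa
Dusp1, chr17:26506159-26506187, minus strand: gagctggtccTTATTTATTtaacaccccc
Dusp1, chr17:26505870-26505898, minus strand: gtttttacctTTATTTATTtttgtgtagg
Fos, chr12:85477103-85477131, plus strand: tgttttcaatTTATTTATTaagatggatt
Pim1, chr17:29495689-29495717, plus strand: tttaatgtatTTATTTATTtatttatttg
Tnf, chr17:35199689-35199717, minus strand: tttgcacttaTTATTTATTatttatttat
Zfp36, Zfp36l1, Zfp36l2 and Rc3h1 each held 1 nonamer, and Elavl1 held 8, which partly overlap in a run of AU-rich sequence. Zc3h12a, Cnot1, Khsrp and Hnrnpd held none in that UTR. Pim1 held 3 and Tnf 5 overlapping nonamers, of which the first is shown.

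The libraries held 14935114 to 16794810 counts. Levels are given in CPM, counts scaled to a common library total, and a gene with a count of 0 could have up to 3 counts, or 0.177 to 0.199 CPM. Gsdmd itself had a mean of 75.3 ± 14.1 CPM over WT and of 16.2 ± 1.56 CPM over Gsdmd-/- libraries (SD, n = 4), and it fell by 2.22 on the log2 scale (edgeR's quasi-likelihood test, Benjamini-Hochberg adjusted p = 4.67e-05). WT 2 and WT 3 stood apart from the other 6 libraries on the first principal component (45.4 and 38.8 against -25.9 to -7.19), so a log2 fold change that turned or moved by over 1.5 times without them is also given without them. All 13 macrophage markers were measured, with a summed level of 16350 to 24631 CPM in WT and 20306 to 24298 CPM in Gsdmd-/-. Most of this sum was Lyz2, at 12999 to 20249 CPM in WT and 16758 to 20757 CPM in Gsdmd-/-. Of markers of other cell types, the neutrophil list summed to 5.36 to 7.94 CPM in WT and 6.93 to 7.69 CPM in Gsdmd-/-, and the lymphoid list stayed below 1 CPM in every library.

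Zfp36 (ENSMUSG00000044786, chr7:28376784-28380253) encodes tristetraprolin, the founding member of its family. In WT it stood at 108.6, 95.9, 90.7 and 102 CPM in libraries 1 to 4, and in Gsdmd-/- at 202, 183, 207 and 186 CPM. Every Gsdmd-/- library stood above every WT library, and the lowest Gsdmd-/- value was well clear of the highest WT value. The means were 99.2 ± 7.71 and 195 ± 11.7 CPM (SD, n = 4), a ratio of 1.96, and the fitted log2 fold change of Gsdmd-/- over WT was 0.97 with a standard error (SE) of 0.0854. It was 0.88 without WT 2 and WT 3 and lay between 0.93 and 1.02 when each library was left out in turn. In a bulk sample more cells with the transcript and more transcript per cell cannot be told apart. An antisense gene, Gm44710, overlaps 3.60% of the exon bases of Zfp36, and the library kit does not keep the strand.

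Zfp36l1 (ENSMUSG00000021127, chr12:80107754-80113013), which encodes a paralog that also binds AREs, was the lowest of the 9 genes. The libraries had 7.67, 1.16, 0.855 and 5.05 CPM in WT and 5.86, 4.20, 3.87 and 3.18 CPM in Gsdmd-/-. The low values were those of WT 2 and WT 3, which rest on 19 and 14 counts, and the genotypes overlapped. The highest WT library was 8.97 times the lowest, against 1.84 times among Gsdmd-/- libraries. The log2 fold change was 0.22 (SE 0.571) with all libraries, -0.57 without WT 2 and WT 3, and between -0.11 and 0.87 with 1 library left out. A long non-coding RNA gene on the other strand, Gm26669, covers 55.9% of the exon bases of Zfp36l1, so reads from either could not be told apart where they overlap.

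Zfp36l2 (ENSMUSG00000045817, chr17:84183931-84187947), the other paralog, had the highest level of the family. Its level was 450, 493, 481 and 370.5 CPM in WT and 422, 399, 445 and 474 CPM in Gsdmd-/-. The lowest and the highest of the 8 values were both WT libraries, WT 4 and WT 2. Its means were 449 ± 55.1 and 435 ± 32.2 CPM (SD, n = 4), with a log2 fold change of -0.04 (SE 0.106), and 0.08 without WT 2 and WT 3. Leaving out 1 library gave -0.12 (WT 4) to -0.00 (WT 2).

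**Figure D1:**
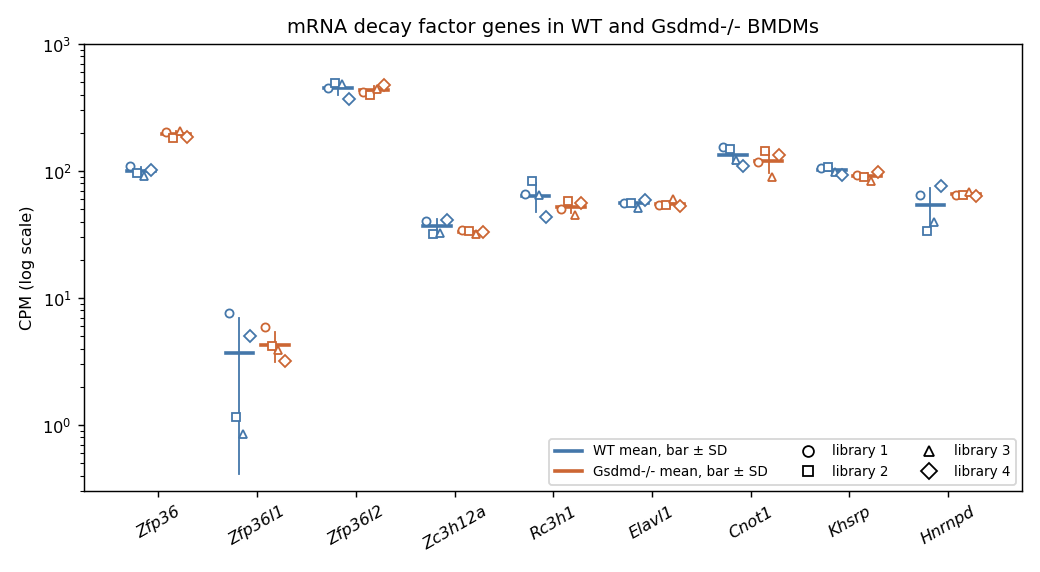
CPM of the 9 genes on a log scale, with a symbol for each library, a horizontal line for the mean of the 4 libraries of a genotype and a vertical bar for ± 1 SD. Only the symbols of Zfp36 are separated by genotype (99.2 against 195 CPM), and those of Zfp36l1 and Hnrnpd are spread in WT.

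Levels of different genes were compared as CPM per kilobase of annotated exon. The sum of the family was 157 ± 14.2 in WT and 181 ± 9.85 CPM per kilobase in Gsdmd-/- (SD, n = 4). Zfp36l2 made up 80.8% ± 3.22 of this sum in WT and 68.1% ± 2.01 in Gsdmd-/-. Zfp36 made up 16.1% to 21.6% of the sum in WT and 28.4% to 32.4% in Gsdmd-/-, and these ranges did not overlap. Zfp36l1 stayed at 0.176% to 1.59% in WT and 0.564% to 1.09% in Gsdmd-/-. Since the level of Zfp36 itself enters these shares, they describe the same difference on another scale.

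**Figure D2:**
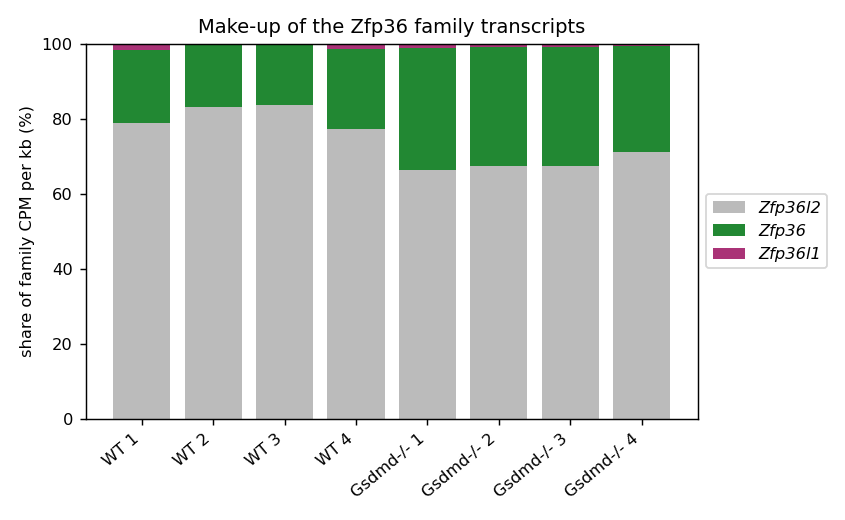
Share of the summed CPM per kilobase of Zfp36, Zfp36l1 and Zfp36l2 held by each gene, in percent, with 1 bar for each library. The Zfp36 share is 16.1% to 21.6% in WT and 28.4% to 32.4% in Gsdmd-/-, and Zfp36l2 is the largest share in every library.

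Zc3h12a (ENSMUSG00000042677, chr4:125118423-125127840) encodes Regnase-1, an endonuclease that cuts cytokine mRNAs at stem loops. It was measured at 40.7, 31.7, 32.6 and 41.4 CPM in WT and at 34.4, 33.9, 32.2 and 32.9 CPM in Gsdmd-/-. WT 2 and WT 3 lay within or just below the Gsdmd-/- values, and WT 1 and WT 4 above them. The means were 36.6 ± 5.17 and 33.3 ± 1.01 CPM (SD, n = 4), and the log2 fold change was -0.13 (SE 0.107), or -0.30 without WT 2 and WT 3. It was -0.20 without WT 2 alone and -0.07 without WT 4 alone.

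Rc3h1 (ENSMUSG00000040423, chr1:160906418-160974978) encodes Roquin-1, which binds stem loops in 3' UTRs and, like tristetraprolin, brings in CCR4-NOT. Its level was 65.9, 82.9, 64.2 and 43.1 CPM in WT and 50.4, 57.7, 45.0 and 55.9 CPM in Gsdmd-/-. WT held both the highest and the lowest of the 8 values. The log2 fold change of -0.29 (SE 0.172) was the lowest of the 9 genes, and it was -0.07 without WT 2 and WT 3. Single libraries mattered too, as it was -0.44 without WT 4 and -0.15 without WT 2.

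Cnot1 (ENSMUSG00000036550, chr8:95719451-95807464) encodes the scaffold of the CCR4-NOT complex, to which tristetraprolin and Roquin-1 bind. It was measured at 154, 150.0, 123 and 109 CPM in WT and at 117, 144, 89.1 and 133 CPM in Gsdmd-/-. The 2 genotypes were interleaved. The means were 134 ± 21.5 and 121 ± 24.0 CPM (SD, n = 4), and the log2 fold change was -0.15 (SE 0.159). It was -0.03 without Gsdmd-/- 3 and -0.25 without Gsdmd-/- 2.

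Elavl1 (ENSMUSG00000040028, chr8:4285382-4325413), which encodes HuR, was the gene with the smallest difference. The values were 56.0, 56.1, 51.2 and 58.8 CPM in WT and 54.4, 53.6, 59.8 and 52.5 CPM in Gsdmd-/-. All 8 libraries lay close together, at 55.5 ± 3.19 and 55.1 ± 3.21 CPM (SD, n = 4), and the log2 fold change was -0.01 (SE 0.0806), or -0.06 without WT 2 and WT 3, and -0.05 to 0.02 when single libraries were dropped.

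Khsrp (ENSMUSG00000007670, chr17:57021051-57031522) encodes KSRP, which binds AREs and promotes decay. It was measured at 106, 107, 97.6 and 93.7 CPM in WT and at 93.0, 89.5, 82.8 and 97.7 CPM in Gsdmd-/-. Gsdmd-/- 4 lay above WT 3 and WT 4, so the genotypes overlapped. The means were 101 ± 6.63 and 90.8 ± 6.27 CPM (SD, n = 4), with a log2 fold change of -0.16 (SE 0.0838) that lay between -0.20 and -0.11 when each library was left out in turn.

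Hnrnpd (ENSMUSG00000000568, chr5:99955935-99978938) encodes AUF1, another ARE binding protein. The values were 65.2, 34.0, 39.7 and 75.9 CPM in WT and 64.7, 65.1, 67.8 and 63.6 CPM in Gsdmd-/-. WT 2 and WT 3 were low, WT 4 was the highest of all, and the 4 Gsdmd-/- libraries were nearly alike. The coefficient of variation was 37.4% in WT and 2.72% in Gsdmd-/-. The log2 fold change was 0.28 (SE 0.221) with all libraries and -0.11 without WT 2 and WT 3, and leaving out WT 2 alone gave 0.11 and WT 4 alone 0.50.

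Cell type markers also differed between WT 2 and WT 3, where Zfp36l1 and Hnrnpd were low, and the other 6 libraries. Of the 13 macrophage markers, 7 were lower in both than in any other library (Cd68, Itgam, Fcgr1, Lyz2, C1qa, C1qb and C1qc) and 3 were higher (Adgre1, Mertk and Mrc1). The complement gene C1qc was at 14.5 and 13.4 CPM in WT 2 and WT 3 and at 43.3 to 148 CPM elsewhere, and the receptor gene Mertk at 249.6 and 212 CPM and at 101 to 142 CPM elsewhere. The 9 dendritic cell markers summed to 70.0 and 68.9 CPM in WT 2 and WT 3 and to 26.5 to 40.8 CPM in the other 6 libraries. Of these markers only Siglech had no count in any library, and Flt3 had 2 counts in all. Clec9a made up most of the dendritic cell sums in WT 2 and WT 3. It was at 49.1 and 45.3 CPM there and at 14.5 to 18.3 CPM elsewhere. Batf3 was at 17.6 and 20.3 CPM in WT 2 and WT 3 and at 8.16 to 18.1 CPM elsewhere, so its values overlapped. The 9 stromal and endothelial markers summed to 29.9 and 27.9 CPM in WT 2 and WT 3 and to 49.0 to 81.0 CPM in the others, with Lum at 0 counts in all libraries. That sum rests on Kdr, at 23.6 and 21.1 CPM in WT 2 and WT 3 and 44.1 to 77.8 CPM elsewhere, while Cdh5 was at 5.38 and 5.86 CPM in WT 2 and WT 3 and 2.78 to 5.78 CPM elsewhere. The part of these markers in the values of Zfp36l1 and Hnrnpd was not tested.

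**Figure D3:**
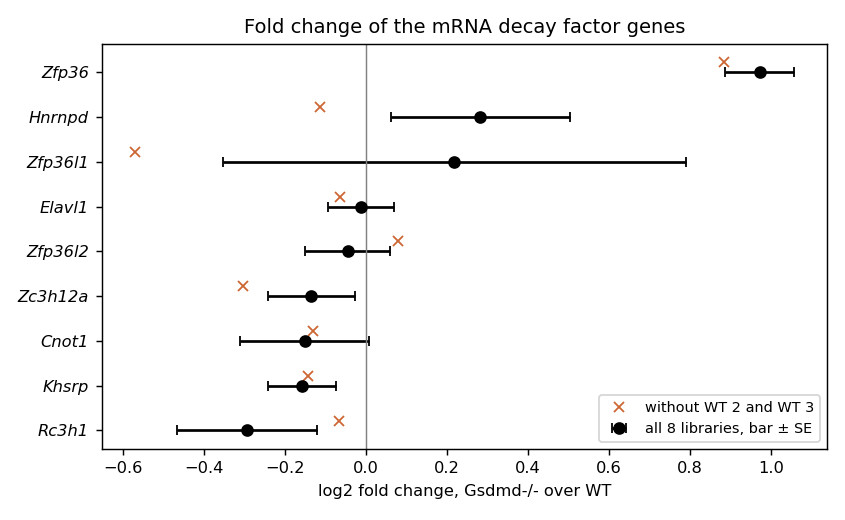
Log2 fold change of Gsdmd-/- over WT for the 9 genes, with points and SE bars from all 8 libraries and crosses from the fit without WT 2 and WT 3. Zfp36 is at 0.97 (0.88 without these libraries), and the other 8 lie between -0.29 and 0.28, with Hnrnpd and Zfp36l1 falling to -0.11 and -0.57 in the second fit.

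Of the 9 genes, 1 (Zfp36) had an adjusted p under 0.05, the share over all genes tested being 0.349% in either direction (0.139% higher and 0.209% lower in Gsdmd-/-). By the cutoff in the legend of the study's volcano plot, an unadjusted p under 0.05 with a log2 fold change of 0.5 or more in size, it was again 1 of 9, the share over all genes being 4.83% (1.54% higher and 3.28% lower in Gsdmd-/-). It was also the only one of the 9 without overlap between the genotypes, a property of 7.60% of all genes tested. Since these values chose the genes, nothing is read from the counts. The median log2 fold change of the 9 genes was -0.04, and that of all genes tested was -0.0068.

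The order of levels in WT, from the highest, was Zfp36l2 (127 ± 15.6 CPM per kilobase, SD, n = 4), Zfp36 (28.6 ± 2.22), Khsrp (23.4 ± 1.53), Zc3h12a (12.7 ± 1.79), Cnot1 (7.82 ± 1.25), Hnrnpd (7.30 ± 2.73), Rc3h1 (5.66 ± 1.44), Elavl1 (5.36 ± 0.308) and Zfp36l1 (1.23 ± 1.09). Among neighbours in this order, the ranges of Cnot1 and Hnrnpd, of Hnrnpd and Rc3h1, and of Rc3h1 and Elavl1 overlapped, and those of the other neighbours did not. In Gsdmd-/- the first 4 genes were the same, at 123 ± 9.12, 56.1 ± 3.37, 21 ± 1.45 and 11.6 ± 0.35 CPM per kilobase. Hnrnpd (8.88 ± 0.241) then stood above Cnot1 (7.04 ± 1.40), and Elavl1 (5.31 ± 0.310) above Rc3h1 (4.62 ± 0.506). Cnot1 overlapped Elavl1 in Gsdmd-/-, as did Elavl1 and Rc3h1.

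The genes with the profile most like that of Zfp36 over the 8 libraries were Klf2, Npy and Dusp1. Likeness was measured as the root mean square difference of log2 CPM after centring each gene on its own mean, and it was 0.129, 0.168 and 0.172 log2 units for these 3 genes. Klf2 encodes a zinc finger transcription factor and Npy the precursor of neuropeptide Y. Npy was measured at 127, 103, 121 and 145 CPM in WT and at 226, 205, 227 and 179 CPM in Gsdmd-/-. Every Gsdmd-/- library stood above every WT library, and its log2 fold change was 0.76 (SE 0.119), given without a test because the gene was picked for its likeness to Zfp36.

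Zfp36l1 was most like Cd24a, Kit and Xaf1, at 0.235, 0.281 and 0.282 log2 units. Kit, the receptor of stem cell factor, was measured at 71.0, 11.4, 10.3 and 60.0 CPM in WT and at 66.9, 62.0, 46.0 and 54.6 CPM in Gsdmd-/-. It was low in WT 2 and WT 3 alone, as was Cd24a at 9.35 and 8.49 CPM against 34.6 to 51.6 CPM in the other libraries. The genes nearest to Zfp36l2 were Tbccd1, Cep135 and Ccny, at 0.050, 0.0531 and 0.0579 log2 units.

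The remaining machinery of mRNA decay was examined with lists of 85 tested genes besides the 9. None of the 85 had an adjusted p under 0.05 by edgeR's quasi-likelihood test, 8 had an unadjusted p under 0.05, and 2 passed the cutoff of the volcano plot, against 0.349%, 12.0% and 4.83% of all genes tested. DESeq2 called 2 of them, Btg2 (adjusted p = 0.00260) and Upf1 (adjusted p = 0.00688), and 2.26% of all genes.

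Of 25 deadenylation genes, 16 had a log2 fold change above 0 and 9 below, with a median of 0.05. Btg2, a protein that stimulates the CCR4-NOT deadenylases, was measured at 18.7, 21.7, 24.7 and 20.9 CPM in WT and at 32.3, 31.6, 29.9 and 28.4 CPM in Gsdmd-/-. Its genotypes did not overlap, and the log2 fold change of 0.51 (SE 0.104) had an adjusted p of 0.0889 with all libraries and 0.0278 without WT 2 and WT 3. Noct, a circadian protein related to the CCR4 deadenylases, averaged 15.3 ± 3.36 CPM over WT and 10.4 ± 1.07 CPM over Gsdmd-/- libraries (SD, n = 4), a log2 fold change of -0.56 (SE 0.164, adjusted p = 0.232 by edgeR). It was -0.26 without WT 2 and WT 3.

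Decapping genes numbered 24, of which 10 lay above 0 and 14 below with a median of -0.02, and none reached an unadjusted p under 0.05. Of the 20 exosome genes, 15 lay above 0 and 5 below, with a median of 0.07. Tut4, which adds uridines to RNA ends, had the lowest p of that list at 12.1 ± 2.05 and 16.8 ± 2.02 CPM (SD, n = 4), with a log2 fold change of 0.47 (SE 0.146, adjusted p = 0.260 by edgeR). Of the 16 genes of nonsense-mediated decay, 6 lay above 0 and 10 below, with a median of -0.05. Upf1, the helicase of that pathway, was measured at 93.3, 104.8, 106 and 94.2 CPM in WT and at 72.4, 72.7, 68.1 and 85.9 CPM in Gsdmd-/-. These did not overlap, and its log2 fold change was -0.41 (SE 0.0937, adjusted p = 0.115 by edgeR).

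**Figure D4:**
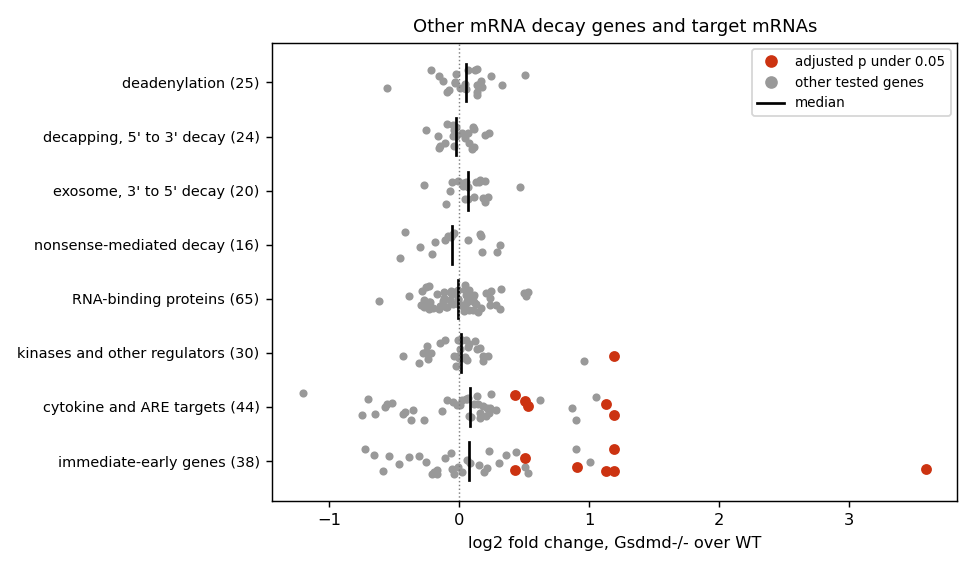
Log2 fold change of Gsdmd-/- over WT for each tested gene of 8 lists, with the number of tested genes in brackets, a black line at the median of each list and red points for an adjusted p under 0.05. Points of the 4 decay machinery lists lie between -0.56 and 0.51 with none in red, and 5 target mRNAs and 7 immediate-early genes are red, all to the right of 0.

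Of 65 other RNA-binding proteins tested, 32 lay above 0 and 33 below, with a median of -0.00, and none had an adjusted p under 0.05 by edgeR, while 9 had an unadjusted p under 0.05, against 0.349% and 12.0% of all genes. Cpeb4, which binds elements that govern poly(A) tail length, was the only one of them at the cutoff of the volcano plot, which 4.83% of all genes passed. It was measured at 270, 272, 224 and 188 CPM in WT and at 320, 383, 311 and 357 CPM in Gsdmd-/-, without overlap. Its log2 fold change was 0.53 (SE 0.129, adjusted p = 0.143 by edgeR and 0.0172 by DESeq2). DESeq2 called no other gene of this list, and 2.26% of all genes.

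Tristetraprolin is phosphorylated by the kinase MK2, downstream of the p38 kinase, and the phosphatase encoded by Dusp1 switches p38 off. Of 30 tested kinases, phosphatases and proteases that act on decay factors, 17 lay above 0 and 13 below. Dusp1 was the only one with an adjusted p under 0.05 by edgeR, and Map2k6, a kinase upstream of p38, the only other at the cutoff of the volcano plot, against 0.349% and 4.83% of all genes. DESeq2, which called 2.26% of all genes, called Dusp1 and also Prkcd and Rps6ka1. The log2 fold changes of Prkcd and Rps6ka1 were -0.28 and -0.25 (adjusted p = 0.0322 and 0.0353 by DESeq2, 0.232 and 0.225 by edgeR). Dusp1 was measured at 60.4, 45.7, 52.3 and 59.6 CPM in WT and at 145, 126, 116 and 110 CPM in Gsdmd-/-. Every Gsdmd-/- library stood far above every WT library, and Dusp1 rose by a log2 fold change of 1.19 (SE 0.119, adjusted p = 0.00178 by edgeR), an adjusted p that stayed at or below 0.0132 with any 1 library left out. Map2k6 ranged from 0.365 to 0.791 CPM over WT and from 0.571 to 1.36 CPM over Gsdmd-/- libraries (log2 fold change 0.96, adjusted p = 0.364 by edgeR). Mapk14, which encodes p38 alpha, and Mapkapk2, which encodes the kinase that phosphorylates tristetraprolin, were chosen after their values were seen. They had log2 fold changes of -0.01 (SE 0.0889) and 0.04 (SE 0.147), or -0.14 and -0.21 without WT 2 and WT 3.

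Of 60 cytokine and other mRNAs known or thought to be targets of the 9 proteins, 44 passed the filter on low counts. Among these, 28 lay above 0 and 16 below, and the median log2 fold change was 0.08. Dusp1, Fos, Pim1, Myc and Sgk1 rose with an adjusted p under 0.05 by edgeR with all libraries, and none fell. With all libraries, 0.139% of all genes tested rose and 0.209% fell at this threshold. Without WT 2 and WT 3, 3 targets were called higher and 2 lower, Tnfaip3 and Ccl7. Over all genes, that fit called 161 in either direction, against 45 with all libraries. At the cutoff of the volcano plot 7 were higher and 2 lower, against 1.54% and 3.28% of all genes, and 10 were higher and 2 lower without overlap, against 3.48% and 4.12% of all genes. The list was written with results of these data known, and 6 of its genes also stand in the immediate-early list below, among them 4 of the 5 called.

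Fos, a subunit of the transcription factor AP1, was measured at 48.3, 56.9, 60.2 and 42.8 CPM in WT and at 134, 119, 105 and 98.5 CPM in Gsdmd-/-. All Gsdmd-/- libraries were higher, with a log2 fold change of 1.13 (SE 0.133, adjusted p = 0.00590 by edgeR). Pim1, a serine/threonine kinase, averaged 217 ± 14.2 CPM over WT and 312 ± 15.2 CPM over Gsdmd-/- libraries (SD, n = 4), and rose by a log2 fold change of 0.53 (SE 0.0801, adjusted p = 0.0302 by edgeR). Myc, a transcription factor of growth, was at 36.5 ± 2.27 and 52.0 ± 2.85 CPM and rose by 0.51 (SE 0.0827, adjusted p = 0.0361 by edgeR). Sgk1, a kinase induced by serum and glucocorticoid, was at 329.9 ± 4.59 and 444 ± 23.0 CPM and rose by 0.43 (SE 0.0738, adjusted p = 0.0468 by edgeR). The genotypes of all 5 called targets did not overlap. With 1 library left out, Dusp1 and Fos passed the threshold in 8 of 8 fits, and Pim1, Myc and Sgk1 missed it in 6, 7 and 8 of 8. Pim1 kept it without WT 1 or WT 4 and Myc without WT 4, and when WT 2 and WT 3 were both left out, Pim1 and Sgk1 had an adjusted p of 0.0588 and 0.0652 by edgeR.

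Of the 60 genes 16 were not tested, among them Il6 with 4 counts over all libraries, Csf2 with 2 and Il10 with 0, and none of the 16 had more than 50 counts in all. Tnf, chosen after its values were seen, was measured at 35.3, 14.8, 17.6 and 47.5 CPM in WT and at 43.4, 36.1, 52.1 and 46.1 CPM in Gsdmd-/-. WT 2 and WT 3 were low and WT 4 lay among the Gsdmd-/- libraries, and the log2 fold change of 0.63 (SE 0.320) had an adjusted p of 0.489 by edgeR and was 0.10 without WT 2 and WT 3. Tnfaip3, which encodes the deubiquitinase A20 of the NF-kB pathway, was at 76.1, 42.6, 41.2 and 75.2 CPM in WT and at 40.3, 39.2, 40.9 and 39.9 CPM in Gsdmd-/-. Its log2 fold change was -0.55 (adjusted p = 0.319) with all libraries and -0.92 (adjusted p = 0.00183 by edgeR) without WT 2 and WT 3, whose values lay just above those of Gsdmd-/-.

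Over the genome, 922 of 11292 tested protein-coding genes outside the 9 that have an annotated 3' UTR (8.17%) held the nonamer in it. Their median log2 fold change was -0.02, and that of the 10370 genes without it was -0.01. Of the 922, 3 rose with an adjusted p under 0.05, namely Dusp1, Fos and Pim1, and none fell. Of the 10370 genes without the nonamer, 11 rose and 24 fell at this threshold. With both directions pooled, the shares were 0.325% of genes with the nonamer and 0.338% of genes without it. At the cutoff of the volcano plot 1.84% of genes with the nonamer were higher and 2.60% lower, against 1.05% and 3.07% of genes without it. The UTRs with the nonamer were also longer, with a median of 2361 against 1099 bases, and the part of that length in these shares was not tested. Of the 44 tested targets, 17 held the nonamer, and 3 of these 17 were called.

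Zfp36, and Klf2 and Dusp1 of the 3 genes most like it, belong to the immediate-early genes, which are transcribed within minutes of a stimulus without new protein synthesis. Of 38 tested genes of this class besides Zfp36, 7 rose with an adjusted p under 0.05 by edgeR's quasi-likelihood test (Fos, Egr1, Ier2, Dusp1, Klf2, Myc and Sgk1) and none fell, against 0.139% and 0.209% of all genes. With 1 library left out 3 to 8 rose and none fell, the 3 being the count without WT 3, Gsdmd-/- 1 or Gsdmd-/- 3. DESeq2 called 11 higher and 2 lower, Jun and Atf3, against 2.26% of all genes called by DESeq2 in either direction. At the cutoff of the volcano plot 9 were higher and 3 lower, against 1.54% and 3.28% of all genes. The 40 listed genes together had 4001 to 4370 CPM over WT and 4231 to 4618 CPM over Gsdmd-/- libraries, and these ranges overlapped.

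Egr1, an early growth response transcription factor, was measured at 9.01, 2.44, 2.38 and 5.36 CPM in WT and at 75.5, 77.0, 38.6 and 40.5 CPM in Gsdmd-/-. Its log2 fold change of 3.59 (SE 0.424, adjusted p = 0.00590 by edgeR) was the largest of the list. Ier2 rose by a log2 fold change of 1.19 (SE 0.157, adjusted p = 0.0146 by edgeR), from 17.9 ± 3.63 to 41.0 ± 5.32 CPM, and Klf2 by 0.91 (SE 0.138, adjusted p = 0.0302 by edgeR), from 8.31 ± 1.35 to 15.6 ± 1.26 CPM (SD, n = 4). Ier2 missed the threshold without WT 3, Gsdmd-/- 1 or Gsdmd-/- 3, and Klf2 missed it in 6 of 8 fits with 1 library left out, all but those without WT 1 or WT 4. Jun and Atf3 lay in the other direction, at 203 ± 43.9 and 501 ± 90.4 CPM in WT against 135 ± 6.17 and 344 ± 39.6 CPM in Gsdmd-/- (log2 fold changes -0.58 and -0.54, adjusted p 0.134 and 0.165 by edgeR). WT 2 and WT 3 were the highest for both, and without them the log2 fold changes were -0.29 and -0.32.

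**Figure D5:**
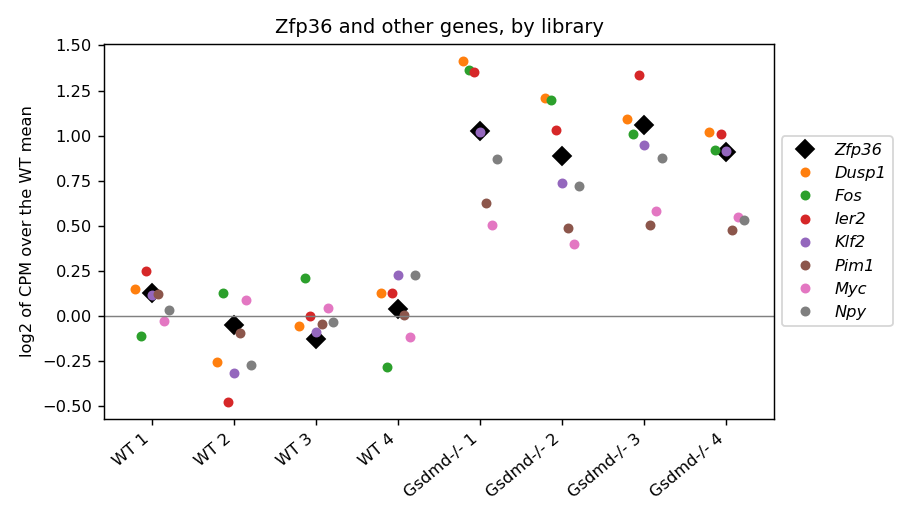
Log2 of the CPM in each library over the mean CPM of the 4 WT libraries, for Zfp36 (black diamonds), for the called genes Dusp1, Fos, Ier2, Klf2, Pim1 and Myc and for Npy, with points shifted sideways for clarity. In every Gsdmd-/- library all 8 genes lie above their highest WT value. The genes besides Zfp36 were drawn because they were called higher in this contrast or, for Npy, because of likeness to Zfp36. The shared direction thus follows from the choice. The called genes Egr1 and Sgk1 are not drawn, nor are Jun and Atf3, which were lower in Gsdmd-/-.

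The promoter of Zfp36 was searched for motifs of transcription factors known from immediate-early genes, in the RefSeq window from 250 bases before to 50 bases after the gene start (GRCm38.p6), which was at hand for 7 of the 9 genes. It held a match to the EGR site (GCGGGGGCG or GCGTGGGCG, both strands) at position -105 and a match to the CArG box of serum response factor at position -58. Both are shown on the minus strand, 5' to 3', with the match in capitals.
Zfp36 EGR site, chr7:28379315-28379343: gagctacgccGCGGGGGCGcgtcccggaa
Zfp36 CArG box, chr7:28379267-28379296: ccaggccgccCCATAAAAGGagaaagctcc
Of 32851 windows of the same length, 3.47% held an EGR site and 1.63% a CArG box. Of the other 6 genes with a window, Hnrnpd held a CArG box at position 0. The windows of Dusp1, Fos and Btg2, searched in the same way, held neither an EGR site nor a CArG box. Searches for the CRE (TGACGTCA) and the GC box (GGGCGG, both strands), held by 1.79% and 35.7% of windows, found a GC box but no CRE in Zfp36, and a CRE in Dusp1 at position -143 and in Btg2 at position -166. The matches are a description of letters and not of bound sites, and a longer transcript model of Zfp36 in GENCODE M21 starts upstream, so in that model these windows are transcribed.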

How the data were processed

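RNA of 8 BMDM libraries (TruSeq kit, total RNA, not strand-specific) was sequenced by a company. The authors deposited 1 table of raw read counts per gene, not normalized. The submitters' processing notes name the build mm10, and the aligner, counter and annotation are not given in the sources used here. Groups came from the genotype labels. Every column was matched to a sample by its name.

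From these counts, edgeR 4.0.16 under R 4.3.3 kept 12911 genes by filterByExpr, took TMM factors, and fitted genotype alone to all 8 libraries. Its quasi-likelihood test was two-sided, and p-values were adjusted over all genes kept by Benjamini-Hochberg. CPM include the TMM factors. Likeness used log2 CPM with a prior count of 2 for genes with a mean of at least 1 CPM. Total counts of 14935114 to 16794810 put the limit of a count of 0 at 0.177 to 0.199 CPM, which covers counting error only. No pair of libraries held the same values. Genes, exon lengths, UTRs and sites came from GENCODE M21 (GRCm38), promoter windows from RefSeq. On simulated data with known changes the scripts recovered the changed genes.

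The 9 genes, the other gene lists and alternatives were chosen with earlier results of these data known. Named were the 9 genes, Gsdmd, from each list every gene with an adjusted p under 0.05 and up to 5 others at the cutoff of the volcano plot, or else the gene with the lowest p, and the 3 genes most like each tristetraprolin family gene. Vegfa, Ier3, Nfkbiz, Pdgfb, Junb and the lead gene of each marker list were also taken by this rule, as given under the other observations. Alternatives were limma voom 3.58.1, DESeq2 1.42.0, RLE factors, no filter on low counts, a minimum of 10 counts per library, each library left out, WT 2 and WT 3 left out, a replicate block, shares without division by length, and the heptamer TATTTAT.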

Additional observations from a re-analysis of the deposited data

Results flagged for a closer look

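In groups of 4 libraries, 36 sets of values were examined for a library far from the others. The level of Pim1 in Gsdmd-/- 1, 334.8 CPM, stood away from the other Gsdmd-/- libraries, which lay between 302 and 308 CPM. Chance alone flags about 1 in 20 such groups. The 4 Gsdmd-/- values all lay above the highest WT value of 236 CPM.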

How the results depend on the processing

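The log2 fold change of Zfp36 stayed between 0.88 and 1.02 under every alternative. Without WT 2 and WT 3, Zc3h12a moved to -0.30 and Hnrnpd to -0.11, and Zfp36l1 was 0.74 with limma voom. Over all genes, the 45 calls at adjusted p became 292 with DESeq2, 109 without a filter, 161 without WT 2 and WT 3, and 14 to 84 with 1 library left out. The 623 at the cutoff of the volcano plot became 1204 without a filter and 469 to 1022 with 1 library left out. Decay machinery calls at adjusted p, 0 with all libraries, were 1 by edgeR without WT 2 and WT 3. DESeq2 called 2 decay machinery genes, 4 RNA-binding or regulator genes in place of 1, 8 targets in place of 5 and 13 immediate-early genes (11 higher and 2 lower) in place of 7. With 1 library left out these counts were 0, 1 to 2, 2 to 5 and 3 to 8, and at the cutoff of the volcano plot 1 to 3, 1 to 6, 7 to 10 and 9 to 13. At that cutoff, RNA-binding or regulator genes numbered 3, and 5 with voom or 6 without a filter, and targets 14 without a filter in place of 9. The heptamer gave 11 and 156 calls over 3407 genes by the 2 thresholds (0.323% and 4.58%), against 0.337% and 4.14% of all tested genes with a 3' UTR. Of the 11, 7 were higher and 4 lower in Gsdmd-/-. The causes of these changes were not tested.

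Library numbers were not taken to pair the samples in the main fit. The correlations of same-numbered libraries were 0.03, 0.18, 0.04 and -0.20, and those of other pairs lay between -0.25 and 0.33. With 4 libraries per genotype these values cannot exclude a pairing. With a replicate block, the calls at adjusted p over all genes were 25, those of targets 2 and of immediate-early genes 4, and RNA-binding or regulator genes at the cutoff of the volcano plot numbered 5.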

Other observations

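Several genes of the lists that no comparison above described are given here as values, without an explanation. Vegfa, an ARE-bearing mRNA for an angiogenic growth factor, averaged 6.00 ± 1.81 CPM over WT and 12.5 ± 3.33 CPM over Gsdmd-/- libraries (SD, n = 4, log2 fold change 1.05, adjusted p = 0.132 by edgeR). Ier3 was at 27.6 ± 9.25 and 51.3 ± 4.63 CPM (0.90, adjusted p = 0.115, or 0.54 without WT 2 and WT 3), Nfkbiz at 1.48 ± 0.630 and 2.70 ± 0.861 CPM (0.87, adjusted p = 0.365, or 0.45 without them), Junb at 145 ± 13.0 and 209 ± 22.8 CPM (0.53, adjusted p = 0.0751) and Pdgfb at 10.8 ± 1.59 and 7.28 ± 1.93 CPM (-0.57, adjusted p = 0.303).

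The cold-inducible RNA-binding proteins Cirbp and Rbm3, chosen after their values were seen, had log2 fold changes of 0.52 and 0.50 (adjusted p 0.512 and 0.357 by edgeR), or 0.04 and 0.14 without WT 2 and WT 3. Gigyf2, a partner of tristetraprolin in translational repression, had the lowest p of the decapping list at -0.26 (adjusted p = 0.432). The naming rule also took Adgre1, Cxcr2, Batf3, Clec9a, Cpa3, Cdh5 and Itga2b from the marker lists, and none of these had an adjusted p under 0.05. Clec9a, a dendritic cell receptor, was at 49.1 and 45.3 CPM in WT 2 and WT 3 and at 14.5 to 18.3 CPM in the other 6 libraries. The mast cell and basophil markers summed to 0.427 to 1.70 CPM in WT and 0.317 to 1.59 CPM in Gsdmd-/-, and the erythroid and megakaryocyte markers to 8.13 to 29.5 CPM in WT and 12.0 to 17.9 CPM in Gsdmd-/-.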
